A study of Arabidopsis thaliana with 36 samples.

Results

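The genes trnP, trnW, psaJ, petL and petG lie next to each other on the plastid genome of Arabidopsis thaliana, and the binding of the plastid RNA polymerase along them is described here. The 5 genes, of 113 plastid genes measured, were chosen by a measured value: trnP had the highest enrichment of all genes in sig2-2 seedlings, and the other 4 flank it. The values of sig2-2 are therefore given as descriptions. Chromatin immunoprecipitation of plastid DNA (ptChIP) recovers DNA crosslinked to a protein, and DNA from such preparations without immunoprecipitation served as input. The leaf groups were chloroplasts from rosette leaves of 14-day-old Col-0 plants grown on soil, taken after 24 h of darkness (Night) or 2 h after the start of light (Day), and RpoB was immunoprecipitated from them. The seedling groups were chloroplast pellets of whole plants of 4 to 5 days, grown on plates in continuous light, from the lines sig2-2, chl27 and chlm and from the reference line Col0. The seedling labels name no antibody and enter every line as wild type, so the lines are known from sample titles and cell line entries, and their nuclear genes are outside the plastid values. Each of the 6 plant groups had 3 ChIP and 3 input libraries, 36 in all. The labels do not say that replicates came from separate plants or cultures, so p-values measure the spread between these samples only.

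RpoB is a catalytic core component of the RNA polymerase encoded in the plastid, which works beside a nucleus-encoded polymerase and needs nucleus-encoded sigma factors to find promoters. SIG2 is one of these sigma factors and is known for its role in transcribing plastid tRNA genes. CHL27 and CHLM are enzymes of chlorophyll synthesis, a subunit of the magnesium-protoporphyrin monomethyl ester cyclase and the magnesium-protoporphyrin methyltransferase. In the cluster, trnP and trnW encode the tRNAs that carry proline and tryptophan in plastid translation. The genes petL and petG encode small membrane subunits of the cytochrome b6f complex, which passes electrons between the photosystems, and psaJ encodes a small subunit of photosystem I. In tobacco, petL, petG and psaJ are known to be transcribed together with the ribosomal protein genes rpl33 and rps18.

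On the plastid genome (TAIR10), petL (ArthCp040) spans 65712 to 65807, petG (ArthCp041) spans 65998 to 66111, and trnW (ArthCt105) spans 66229 to 66302. The tRNA gene trnP (ArthCt106) spans 66490 to 66563 and psaJ (ArthCp042) spans 66929 to 67063. The spacer between trnW and trnP is 187 bp long, and that between trnP and psaJ, at 66564 to 66928, is 365 bp. The genes themselves are 74 to 135 bp long. A sequenced fragment can cover more than 1 of these features, so neighbouring values share reads.

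Values are coverage per position. Relative coverage is the mean over a gene divided by the mean over the plastid genome of the same library, so that 1 is the average position and genes of different length can be compared. Enrichment is log2 ChIP coverage minus the mean log2 coverage of the inputs of the group. For it, coverage was scaled to a total of 1e+06 per library and given per kb, and 1 was added before log2. Mean coverage of the genome was 102 to 480 in Night ChIP libraries, 425 to 1039 in Day ChIP libraries, 1017 to 1395 in leaf inputs and 1132 to 3165 in seedling libraries. The number of reads is unknown, and Night replicate 1 was the shallowest library. Where libraries of different groups are said below not to overlap, the share of all genes without overlap was not counted. Input values did not differ at an adjusted p under 0.05 (limma) for any of the 113 genes between Night and Day or between a line and Col0, and 1 gene passed an unadjusted p under 0.05 between Night and Day and 0 in each line.

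The gene trnP was the most enriched of the 5 in every ChIP library, and petL the least. In sig2-2 the high place of trnP is what selected the cluster, so it is not a separate result there. Relative coverage of trnP was 3.00, 3.21 and 2.58 in Night ChIP libraries and 2.97, 3.87 and 3.51 in Day ChIP libraries, against 0.928 to 0.977 in the leaf inputs. In seedling ChIP libraries it was 2.76, 2.46 and 3.15 in sig2-2, 3.28, 2.98 and 2.90 in chl27, 3.29, 3.64 and 4.21 in chlm, and 3.48, 3.85 and 3.72 in Col0, against 0.874 to 0.943 in the seedling inputs. Every ChIP library was thus far above every input at trnP, and the sig2-2 libraries overlapped those of chl27 but not those of Col0. As enrichment, trnP averaged 1.61 ± 0.16 in Night, 1.85 ± 0.19 in Day, 1.64 ± 0.18 in sig2-2, 1.76 ± 0.09 in chl27, 2.03 ± 0.18 in chlm and 2.02 ± 0.07 in Col0 (SD, n = 3 each). Tested against input in the 5 groups other than sig2-2, trnP was higher in each, with adjusted p between 2.61e-24 and 4.29e-15 (limma).

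**Figure D1:**
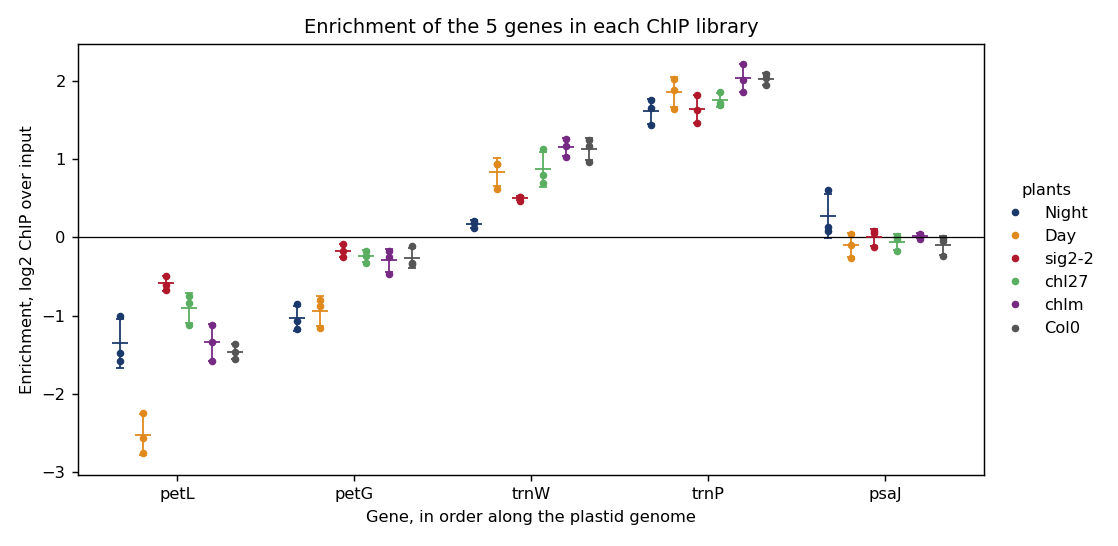
Enrichment (log2 ChIP over the mean input of the group) of petL, petG, trnW, trnP and psaJ, in their order along the genome, in Night and Day leaves and in sig2-2, chl27, chlm and Col0 seedlings. Points are the 3 ChIP libraries of a group, the dash is their mean and bars are the SD. In each group all 3 libraries had trnP highest and petL lowest. In sig2-2 the rank of trnP selected the cluster.

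Ranked by mean enrichment among the 113 genes, trnP was 10th in Night and 10th in Day, 1st in sig2-2, 4th in chl27, 6th in chlm and 6th in Col0. In sig2-2, where the rank selected it, the gene next below was trnL (Arthct122), another tRNA gene, at 1.51 ± 0.16, less than 1 SD of trnP away. In Night, trnP stood between trnF at 1.71 and trnG (ArthCt092) at 1.53, and in Day between trnM at 1.87 and rrn23S at 1.83. The neighbours in chl27 were trnL (Arthct122), with 1.79, and trnQ, with 1.72. Those in chlm were trnT, with 2.19, and trnfM, with 2.02, and those in Col0 were trnQ, with 2.09, and rrn16S, with 1.99. Each of these neighbours lay within 1 SD of the mean of trnP.

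The second tRNA gene, trnW, was enriched less than trnP in all 18 ChIP libraries. Its relative coverage was 1.09, 1.11 and 1.04 in Night ChIP libraries and 1.44, 1.79 and 1.78 in Day ChIP libraries, against 0.903 to 0.968 in leaf inputs. In seedling ChIP libraries it was 1.32, 1.36 and 1.36 in sig2-2, 2.08, 1.66 and 1.54 in chl27, 2.26, 2.12 and 1.93 in chlm and 2.24, 2.12 and 1.85 in Col0. Night and Day did not overlap, nor did sig2-2 and Col0. Against input trnW was higher in Day (0.83 ± 0.11, SE, adjusted p = 9.22e-09), chl27 (0.87 ± 0.08, 4.71e-13), chlm (1.15 ± 0.08, 5.22e-17) and Col0 (1.13 ± 0.08, 8.85e-17), but not in Night (0.17 ± 0.11, adjusted p = 0.132; limma). The Night value passed the test when libraries were centred on their median gene (0.56) or spans were extended by 50 bp (0.27).

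The cytochrome b6f gene petL lay below the plastid average in all 18 ChIP libraries, and petG did in all but sig2-2 replicate 3 (1.04). Relative coverage of petL was 0.331, 0.355 and 0.496 in Night ChIP libraries and 0.140, 0.201 and 0.160 in Day ChIP libraries, against 0.919 to 1.00 in leaf inputs. In seedling ChIP libraries petL had 0.731, 0.699 and 0.791 in sig2-2, 0.500, 0.645 and 0.606 in chl27, 0.430, 0.501 and 0.363 in chlm and 0.411, 0.387 and 0.442 in Col0, against 1.06 to 1.15 in the inputs. The Day libraries were the lowest and the sig2-2 libraries the highest of the 18 at petL, and neither overlapped another group. Less than 200 bp away, petG had 0.518, 0.479 and 0.598 in Night ChIP libraries and 0.468, 0.601 and 0.572 in Day ChIP libraries, so these groups overlapped. In seedlings petG had 0.929, 0.982 and 1.04 in sig2-2, 0.951, 0.910 and 0.853 in chl27, 0.929, 0.974 and 0.800 in chlm and 0.986, 0.855 and 0.843 in Col0, and all 4 groups overlapped.

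Against input, petL was lower in Night (-1.35), Day (-2.52), chl27 (-0.90), chlm (-1.34) and Col0 (-1.46), with adjusted p between 9.38e-17 and 2.14e-09 (limma). The corresponding values of petG were -1.03 in Night, -0.94 in Day, -0.24 in chl27, -0.29 in chlm and -0.26 in Col0, with adjusted p between 2.14e-09 and 0.00189 (limma). The direction at petG depended on the scaling: with libraries centred on their median gene it was 0.0023 in Day, 0.13 in chl27, 0.30 in chlm and 0.27 in Col0. Centred in this way, petG was called higher than input in chlm (adjusted p = 0.000298) and Col0 (0.000717; limma), and not called in Day or chl27. When libraries were scaled on positions outside the inverted repeats, the lower calls were lost in chlm (-0.13, adjusted p = 0.0518) and Col0 (-0.042, 0.510; limma).

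The enrichment of the photosystem I gene psaJ lay between -0.10 and 0.27 in all groups. Relative coverage of psaJ was 0.717, 0.992 and 0.696 in Night ChIP libraries and 0.651, 0.718 and 0.581 in Day ChIP libraries, against 0.630 to 0.727 in leaf inputs. In seedling ChIP libraries it was 0.952, 0.840 and 0.969 in sig2-2, 0.882, 0.795 and 0.912 in chl27, 0.889, 0.882 and 0.852 in chlm and 0.909, 0.776 and 0.882 in Col0, against 0.756 to 0.951 in the inputs. ChIP and input libraries overlapped in the seedling table, and 1 library, Night replicate 2, stood above the rest of the leaf libraries. Against input psaJ was higher in Night (0.27 ± 0.13, SE, adjusted p = 0.0457, limma), a call that was lost without replicate 2 of both kinds of library (0.14), without replicate 1 (0.32) and under 3 other alternatives. It was not called in Day (-0.10, adjusted p = 0.447), chl27 (-0.059, 0.482), chlm (0.022, 0.780) or Col0 (-0.099, 0.227; limma), but these values depended on the scaling. With libraries centred on their median gene, psaJ was called higher than input in Day (0.84), chl27 (0.31), chlm (0.62) and Col0 (0.43), with adjusted p between 3.7e-08 and 0.000536 (limma). When libraries were scaled on positions outside the repeats it was called higher in Day (0.29) and chlm (0.19).

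Counted over the 5 genes, 2 were higher than input in Night, trnP and psaJ, where 35.4% of all 113 genes were, and 2 were lower, petL and petG, where 53.1% were. In Day, 2 were higher, trnP and trnW, against 33.6% of all genes, and 2 were lower against 59.3%. In each seedling group tested, trnP and trnW were higher and petL and petG lower: the shares of all genes higher and lower were 35.4% and 54.0% in chl27, 34.5% and 56.6% in chlm, and 36.3% and 55.8% in Col0. The 2 of 5 in each direction are near these shares. Over all genes the split followed the scaling: 40 higher and 60 lower in Night became 51 and 47 with centring on the median gene, 38 and 67 in Day became 53 and 51, 40 and 61 in chl27 became 53 and 52, 39 and 64 in chlm became 55 and 51, and 41 and 63 in Col0 became 55 and 53.

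Along the cluster, in windows of 50 bp, enrichment formed 1 main peak at trnP. The highest window was 66512 to 66561, inside trnP, in every library of sig2-2, chl27, chlm and Col0. In Day it was that window in 2 libraries and the next one in replicate 2. In Night it was that window in replicate 3, the next one in replicate 1, and a window at 66812 to 66861, within the spacer to psaJ, in replicate 2. The height of the summit was 1.75 ± 0.30 in Night, 1.88 ± 0.21 in Day, 1.68 ± 0.19 in sig2-2, 1.77 ± 0.09 in chl27, 2.05 ± 0.20 in chlm and 2.05 ± 0.07 in Col0 (SD, n = 3 each).

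The width over which ChIP over input stayed above 0.5 of the summit was 600 to 650 bp in Night, 400 to 650 bp in Day, 300 to 400 bp in sig2-2, 400 to 450 bp in chl27, 350 to 500 bp in chlm and 350 to 450 bp in Col0. Past the peak, mean enrichment dipped and was higher again in the spacer before psaJ, in leaves and in seedlings. In the window centred 246.5 bp from the start of trnP it was 1.08 in Night and 0.89 in Day, and in that centred 346.5 bp from the start it was 1.46 in Night and 1.10 in Day. In seedlings the window at 246.5 bp averaged 0.083 in sig2-2, 0.32 in chl27, 0.52 in chlm and 0.19 in Col0, and that at 346.5 bp averaged 0.44 in sig2-2, 0.37 in chl27, 0.70 in chlm and 0.31 in Col0. The SD in chl27 was 0.14 and 0.31 in these windows, more than the difference of the means. There replicate 2 fell from 0.19 to 0.020, while replicates 1 and 3 rose. Input coverage of this spacer also differed between the tables: relative coverage was 0.439 to 0.638 in leaf inputs and 0.743 to 0.964 in seedling inputs. Leaf and seedling libraries differ in age, tissue and table, and the difference between them was not tested.

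**Figure D2:**
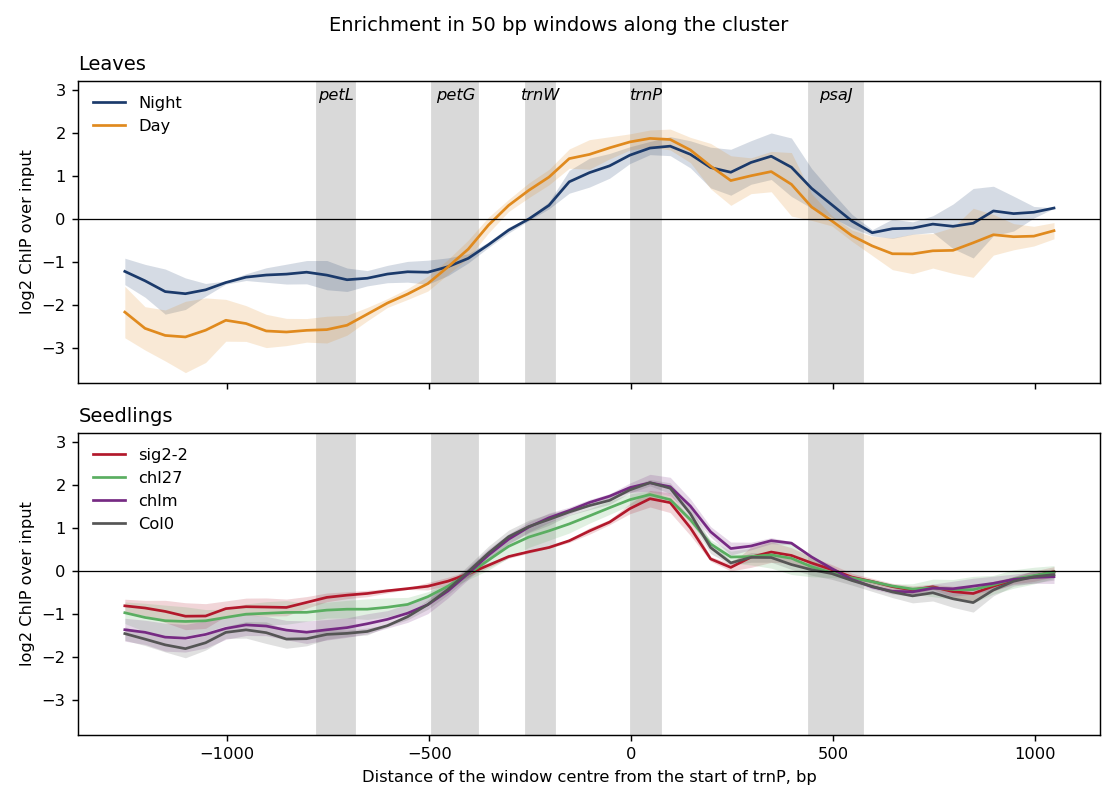
Mean enrichment (log2 ChIP over input) in consecutive 50 bp windows against the distance of the window centre from the start of trnP in bp, for leaves (top) and seedlings (bottom). Lines are means of 3 libraries, shading is the SD, and grey bars mark the 5 genes. The mean is highest in the window inside trnP in every group but Night, where the next window is highest (1.69 against 1.65). A second rise before psaJ reaches 1.46 in Night and 1.10 in Day. The lowest mean of every group is in the window 65362 to 65411, in the spacer beside petL on the side away from petG. It is lowest in Day (-2.74).

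The leaf comparison asks how polymerase binding differs after 24 h of darkness. Within this cluster petL was higher and trnW lower in Night, while trnP, petG and psaJ did not pass the test. Enrichment of petL was -1.58, -1.48 and -0.999 in Night libraries and -2.76, -2.24 and -2.56 in Day libraries, a difference of 1.17 ± 0.22 (SE, adjusted p = 2.05e-05, limma) with no overlap. For trnW it was 0.18, 0.21 and 0.12 in Night and 0.62, 0.94 and 0.93 in Day, a difference of -0.66 ± 0.15 (adjusted p = 0.00027, limma), again without overlap. The difference was -0.24 ± 0.16 at trnP (adjusted p = 0.165), -0.089 ± 0.168 at petG (0.644) and 0.38 ± 0.18 at psaJ (0.0642; limma).

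Of the 5 genes, 1 was therefore higher, where 58.4% of all genes were, and 1 was lower, where 12.4% were. The median of all genes was 0.53 higher in Night, and petL exceeded it while trnW, trnP, petG and psaJ lay below it. Centring on the median gene took that median to -0.016 and the split of calls over all genes from 66 higher and 14 lower to 35 and 37, and scaling to coverage outside the inverted repeats took the median to 0.094 and the split to 41 and 30. The calls at petL (0.62 with centring) and trnW (-1.21) held under every alternative that gave a value. The values of trnP became calls of lower binding under both scalings (-0.79 and -0.68), as did those of petG (-0.64 and -0.53), and psaJ turned to -0.18 and -0.065.

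The spacers between the genes were fitted in the same way. Between Night and Day, the spacer from petL to petG was higher by 0.59 ± 0.22 (SE, adjusted p = 0.0368) and the spacer from petG to trnW lower by -0.55 ± 0.16 (adjusted p = 0.0117; limma). The spacer from trnW to trnP differed by -0.44 ± 0.21 (adjusted p = 0.0828) and that from trnP to psaJ by 0.053 ± 0.285 (0.871; limma), neither past the threshold. The spacer from trnW to trnP was called lower with centring (-0.55, adjusted p = 0.00995), without replicate 2 (-0.52, 0.0271) and with the replicate number as a block (0.0284; limma). With all replicates and no block, 2 of the 4 spacers passed, against 41.6% of all 101 spacers, and both calls were lost without replicate 1 and without replicate 3, and that from petL to petG also with centring (0.48). Without replicate 1, which holds the shallowest library, 14 of all 101 spacers were called where 42 were with all replicates.

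In sig2-2 seedlings trnP and trnW, the genes bound up with the choice of the cluster, had lower mean enrichment than in Col0, by -0.38 and -0.62, and no test is given for them. Enrichment of trnP was 1.63, 1.46 and 1.82 in sig2-2 and 1.94, 2.09 and 2.04 in Col0. That of trnW was 0.47, 0.52 and 0.51 in sig2-2 and 1.24, 1.16 and 0.97 in Col0. The groups did not overlap at either gene. Over all genes such separation was not counted, and 98 of 113 genes were called in this comparison (limma). Without replicate 2 the difference at trnP was -0.24. With libraries centred on their median gene the differences were -0.72 at trnP and -0.96 at trnW. The spacers that touch trnP differed by -0.56 from trnW to trnP and by -0.16 from trnP to psaJ, also as descriptions.

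At petL, enrichment was -0.60, -0.67 and -0.49 in sig2-2 and -1.47, -1.55 and -1.36 in Col0, so petL was higher in sig2-2 by 0.87 ± 0.13 (SE, adjusted p = 1.31e-07, limma), without overlap, or by 0.53 with libraries centred on their median gene. The difference was 0.089 ± 0.101 at petG (adjusted p = 0.395) and 0.10 ± 0.11 at psaJ (0.388; limma), and with centring the signs turned, to -0.25 (adjusted p = 0.0219) and -0.24 (0.0413), both then called, while over the alternatives adjusted p ran up to 0.902 and 0.990. Of the 3 genes tested, 1 was higher, against 53.1% of all genes, and 0 were lower, against 33.6%. The median of all genes was 0.36, which centring took to 0.022, and the split of calls over all genes, 60 higher and 38 lower, became 50 and 50. The spacer from petL to petG was higher by 0.71 ± 0.13 (SE, adjusted p = 4.29e-06, limma), and 82.2% of all spacers were called. The spacer from petG to trnW adjoins trnW and can share its reads, so its difference of -0.41 ± 0.12 is given as a description.

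Between chl27 and Col0, petL was the only one of the 5 genes past the threshold. Its enrichment was -1.11, -0.74 and -0.83 in chl27 and -1.47, -1.55 and -1.36 in Col0, without overlap, a difference of 0.56 ± 0.13 (SE, adjusted p = 0.00202, limma). Without replicate 2 of both groups the difference was 0.42 (adjusted p = 0.110, limma; 0.000175 to 0.110 over the alternatives), and 0 of the 113 genes were then called, where 61 were with all replicates and 17 without replicate 3. At trnW the difference was -0.25 ± 0.11 (adjusted p = 0.0536) and at trnP -0.27 ± 0.12 (0.0548; limma), just outside the threshold, and both were called under 5 of the 12 alternatives, among them centring on the median gene (-0.42 and -0.43) and leaving out replicate 1 (-0.34 and -0.38). Enrichment of trnP was 1.86, 1.72 and 1.68 in chl27 and 1.94, 2.09 and 2.04 in Col0, without overlap, while at trnW chl27 replicate 1 (1.13) lay among the Col0 libraries.

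The differences at petG (0.018, adjusted p = 0.885) and psaJ (0.040, 0.777; limma) were small and turned to -0.15 and -0.12 with centring. The 1 gene higher compares with 40.7% of all genes, and the 0 lower with 13.3%. The split over all genes, 46 higher and 15 lower, became 35 and 28 with centring and 35 and 25 with scaling outside the inverted repeats. The spacer from petL to petG was higher by 0.36 ± 0.13 (SE, adjusted p = 0.0217, limma), the 1 called of 4 where 39.6% of all spacers were called, and this call was lost without replicate 2 and without replicate 3.

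Between chlm and Col0, 0 of the 5 genes passed the threshold, nor did any other gene (0% of 113; 8 genes had an unadjusted p under 0.05). The differences were 0.12 ± 0.13 at petL, -0.035 ± 0.101 at petG, 0.024 ± 0.113 at trnW, 0.0092 ± 0.1202 at trnP and 0.12 ± 0.11 at psaJ (SE), with adjusted p of 0.978 or more (limma). Scaling outside the inverted repeats turned the signs at trnW (-0.029) and trnP (-0.044), and centring that at petG (0.026). The widest difference among the 4 spacers was 0.26 ± 0.12 from trnP to psaJ (adjusted p = 0.219, limma), and 0% of all spacers were called, with 19 at an unadjusted p under 0.05.

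**Figure D3:**
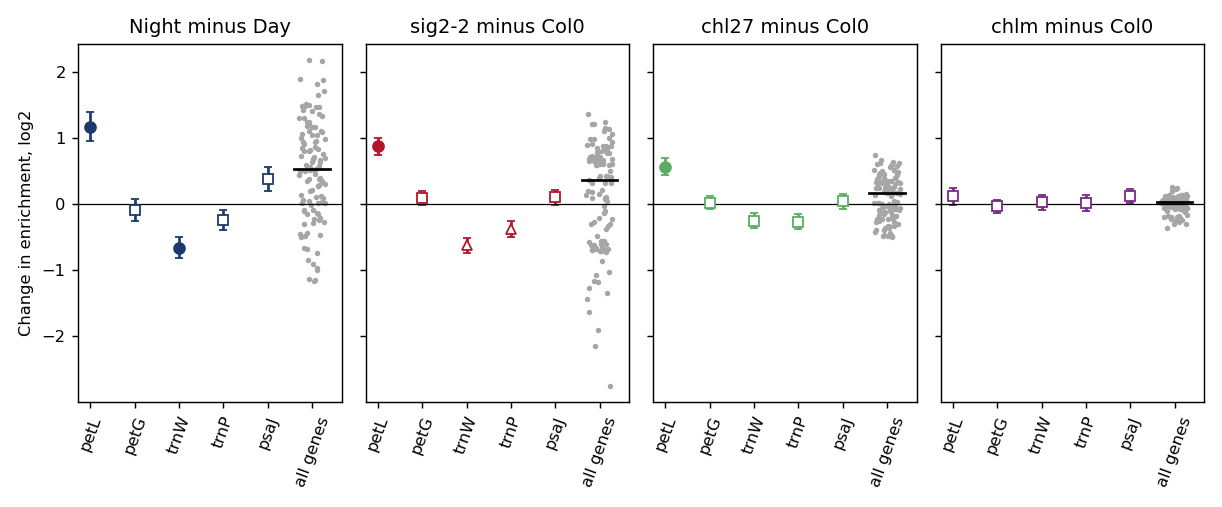
Change in enrichment (log2) of petL, petG, trnW, trnP and psaJ, with bars for the SE, in Night minus Day, sig2-2 minus Col0, chl27 minus Col0 and chlm minus Col0. Filled circles passed an adjusted p of 0.05 (limma), open squares did not, open triangles were not tested, and grey points are all 113 genes with their median as a line. At petL the change is 1.17 for Night, 0.87 for sig2-2, 0.56 for chl27 and 0.12 for chlm.

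The 3 line comparisons share the Col0 libraries and are given side by side without a test between them. At petL the values minus Col0 were 0.87 in sig2-2, 0.56 in chl27 and 0.12 in chlm. At trnW they were -0.62 for sig2-2, -0.25 for chl27 and 0.024 for chlm, and at trnP -0.38 for sig2-2, -0.27 for chl27 and 0.0092 for chlm. The enrichment range between trnP and petL was 2.97 in Night and 4.37 in Day, and 2.23 in sig2-2, 2.65 in chl27, 3.37 in chlm and 3.48 in Col0.

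Differences between 2 genes of 1 library do not depend on how libraries were scaled. The log2 coverage of trnP minus that of psaJ was 2.06, 1.69 and 1.89 in Night ChIP libraries and 2.19, 2.43 and 2.59 in Day ChIP libraries, without overlap, a difference of -0.52. The exact two-sided permutation test gave p = 0.1, the smallest that 3 against 3 libraries allow. In seedling ChIP libraries the value was 1.54, 1.55 and 1.70 in sig2-2, 1.90, 1.90 and 1.67 in chl27, 1.89, 2.04 and 2.30 in chlm and 1.94, 2.31 and 2.08 in Col0. The difference from Col0 was -0.51 in sig2-2 without a test, -0.29 in chl27 (exact permutation p = 0.1, Benjamini-Hochberg adjusted 0.2 over both lines) and -0.031 in chlm (exact permutation p = 0.7, adjusted 0.7). Input libraries averaged 0.54 in Night and 0.45 in Day, and -0.040 in sig2-2, 0.0091 in chl27, 0.070 in chlm and -0.011 in Col0.

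Of the pairs of neighbours looked at after their values were seen, petG minus petL separated the groups most. The p-values of these pairs were not adjusted for the choice of pair. It was 0.65, 0.43 and 0.27 in Night ChIP libraries and 1.74, 1.58 and 1.83 in Day ChIP libraries, a difference of -1.27 (exact permutation p = 0.1). Both genes encode subunits of 1 complex and lie 190 bp apart. In seedlings it averaged 0.41 in sig2-2, 0.64 in chl27, 1.07 in chlm and 1.11 in Col0, and the difference from Col0 was -0.70 in sig2-2 and -0.47 in chl27 (exact permutation p = 0.1 and adjusted 0.15 for each) and -0.042 in chlm (exact permutation p = 0.7, adjusted 0.7). The pair trnW minus trnP averaged -1.44 in Night and -1.05 in Day (exact permutation p = 0.1, no overlap), and its 3 seedling comparisons all overlapped.

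**Figure D4:**
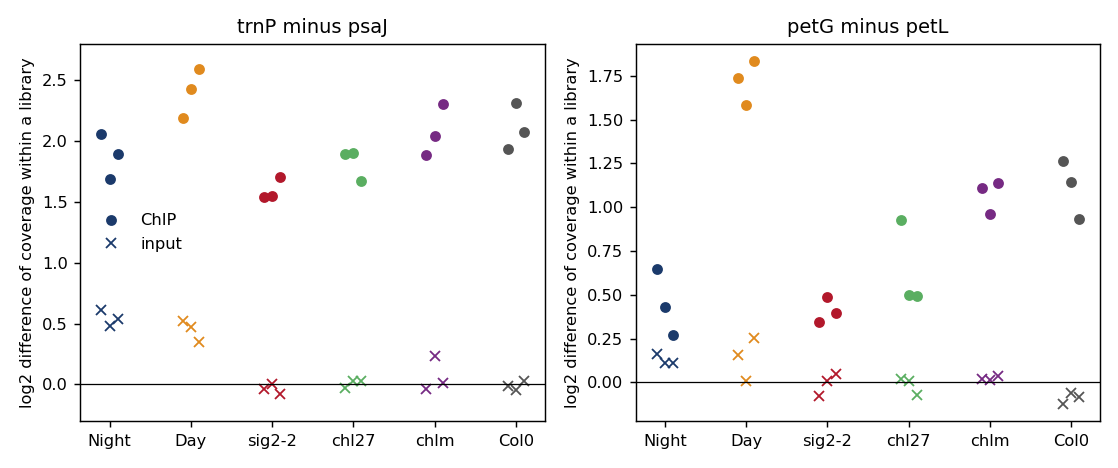
Log2 coverage of trnP minus that of psaJ (left) and of petG minus that of petL (right) within each library, by plant group, with circles for the 3 ChIP libraries and crosses for the 3 inputs of a group. The Night ChIP libraries lie below the Day ChIP libraries in both plots, and inputs lie between -0.080 and 0.61 on the left and between -0.12 and 0.26 on the right.

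Over the means of the 6 plant groups, which share 2 tables and, within each, 1 way of preparation, the genes whose enrichment was most like that of trnP were trnL (Arthct122) with a Pearson r of 0.93, trnW with 0.93 and rrn4.5S, a ribosomal RNA gene, with 0.89. For psaJ they were the ribosomal protein genes rpl32 (0.94), rpl33 (0.94) and rpl20 (0.90). These are descriptions over 6 points, and r compares the pattern over groups, not the level. Enrichment of rpl32 was 0.58 in Night and between -0.95 and -0.56 in the other groups, where psaJ lay between -0.10 and 0.022. Both were highest in Night, where psaJ had 0.60 in replicate 2 and 0.13 and 0.089 in replicates 1 and 3. At rpl33, the next gene beyond psaJ, enrichment was 0.61 in Night and -0.092 in Day, and 0.24 in sig2-2, 0.034 in chl27, 0.024 in chlm and 0.034 in Col0, and it was higher in Night than in Day by 0.70 ± 0.18 (SE, adjusted p = 0.000691, limma).

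Genes on both flanks of the cluster were higher in Night as well, where 58.4% of all genes were. The ribosomal protein gene rps18 differed by 0.75, and psbE, psbF and psbL, small photosystem II genes on the petL side, by 0.52, 0.51 and 0.58 (adjusted p between 0.000332 and 0.0104, limma), beside a median of 0.53 for all genes, while psbJ, farther along, differed by 0.33 (adjusted p = 0.132). With libraries centred on their median gene, 0 of these calls or that of rpl33 held, and psbE (-0.032) and psbF (-0.041) changed sign. In sig2-2 the differences from Col0 were 0.62 at psbE, 0.67 at psbF, 0.64 at psbL, 0.50 at psbJ and 0.40 at rps18 (adjusted p between 9.4e-07 and 0.00222, limma), and 0.21 at rpl33 (adjusted p = 0.0964). Beside these, 53.1% of all genes were higher in sig2-2, and the median of all genes was 0.36. Centring turned rpl33 to -0.13 and ended the call at rps18 (0.061, adjusted p = 0.396, limma).

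Set beside the genes of the same complex, petL was one of 5 of the 6 cytochrome b6f genes higher in Night, where 58.4% of all genes were, and petG was the exception. In sig2-2 4 of the 6 were higher, beside 53.1% of all genes, and petG and petN (0.13) were not called. In chl27 4 of the 6 were higher, beside 40.7% of all genes. Their median change was 0.64 in Night, 0.73 in sig2-2, 0.36 in chl27 and 0.043 in chlm, beside 0.53 in Night, 0.36 in sig2-2, 0.16 in chl27 and 0.025 in chlm for all genes. With centring, 2 of the 6 were higher and 1, petG, was lower in Night, and 4 were higher and 1, petG again, was lower in sig2-2.

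Of the 5 photosystem I genes, psaC (1.30) and psaI (1.16) were higher in Night, and psaJ, psaA (-0.11) and psaB (-0.27) were not called, beside 58.4% of all genes higher and a median of 0.53. In sig2-2 psaC (0.89), psaI (0.65), psaA (0.32) and psaB (0.31) were higher and psaJ was not called, beside 53.1% of all genes higher, and psaA and psaB lay below the median of all genes (0.36). With centring, 2 were higher and 2 lower in Night, and 2 were higher and 1, psaJ, lower in sig2-2.

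Among the 28 tRNA genes other than trnP and trnW, 5 were higher and 7 lower in Night, with a median change of 0.018, beside 58.4% and 12.4% of all genes, and with centring 0 were higher and 17 lower, with a median of -0.53. In sig2-2 0 were higher and 26 lower with a median of -0.71, beside 53.1% and 33.6% of all genes, where the described values were -0.38 at trnP and -0.62 at trnW. In chl27 0 were higher and 10 lower, with a median of -0.23, beside 40.7% and 13.3% of all genes, or 16 lower with centring, where trnP had -0.27 and trnW -0.25. In chlm 0 were called in either direction (median 0.021). Against input, 25 of the 28 were higher in Night, 27 in Day, and 28 in each of chl27, chlm and Col0, where 33.6% to 36.3% of all genes were higher.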

How the data were processed

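The authors deposited the coverage signal at each of 154477 plastid positions, unscaled and in whole numbers, in a leaf and a seedling table with a column for each library. Per the submitters' processing notes, Trim Galore 0.4.1, Bowtie2 2.2.8.9, bedtools 2.25.0 and TAIR10 were used. Read length, filters, treatment of duplicates and placement of reads in the inverted repeats are not given in the sources used here. Neighbouring positions share reads, so no count model was run, and errors come from the replicates alone. No pair of replicates was identical.

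Gene spans came from RefSeq TAIR10.1 (129 plastid entries, 1 repeated span removed, 15 genes with a copy in each repeat merged, 113 genes left). That these positions apply was checked by the mirror symmetry of coverage about the repeats, which was met at 0 bp in 35 libraries and at 2 bp in 1 seedling library. Coverage was divided by the plastid total, multiplied by 1e+06 and given per kb, and log2 was taken after adding 1. Spacers of at least 50 bp between genes (101) were treated alike. Tests used limma 3.58.1 in R 4.3.3 (group means, eBayes with a trend), with Benjamini-Hochberg adjustment over all genes or spacers and a threshold of 0.05, each table on its own. The test was tried on simulated data: 20 of 20 genes changed by 1 log2 unit were recovered in each comparison, with 1, 2, 0 and 0 false calls in Night, sig2-2, chl27 and chlm. The simulated errors were independent between genes, and changes went equally in each direction with no shift common to a library. Shared reads, scaling and smaller changes were therefore not tried. Python 3.11.15, numpy 2.4.6, pandas 2.3.3, scipy 1.17.1 and matplotlib 3.10.9 were used for the rest.

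The genes and lists were chosen with earlier results of these data known. The text names the 5 genes, the neighbours of trnP in each ranking, the 3 genes most like trnP and psaJ, the flanking genes and 3 lists. Members in sig2-2 ChIP against input, and trnP, trnW and the spacers at trnP in sig2-2 minus Col0, were not tested. In sig2-2 minus Col0 the spacer from petG to trnW is given without its test, since it adjoins trnW. A search for promoter motifs was not run and no sequence was used here. Alternatives were other scalings, pseudocounts of 0.1 and 10, leaving out the lowest 10% of genes, no trend, spans extended by 50 bp, median coverage, a replicate block, other windows and leaving out each replicate number.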

Additional observations from a re-analysis of the deposited data

Results flagged for a closer look

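Groups of 3 libraries are too small for a test of outliers, so what follows are differences in enrichment between plant groups that passed the test of the difference itself. In Night against Day leaves these were petL (1.17), trnW (-0.66), the spacer from petL to petG (0.59) and the spacer from petG to trnW (-0.55). Of all genes 58.4% were higher and 12.4% lower there, and 41.6% of all spacers were called. Both spacer calls were lost without replicate 1 and without replicate 3, and that from petL to petG also with centring. In sig2-2 against Col0 seedlings they were petL (0.87) and the spacer from petL to petG (0.71). Of all genes 53.1% were higher and 33.6% lower there, and 82.2% of all spacers were called. The spacer from petG to trnW (-0.41) is not counted among these, since it adjoins trnW and is given as a description. In chl27 against Col0 seedlings they were petL (0.56) and the spacer from petL to petG (0.36). Of all genes 40.7% were higher there, and 39.6% of all spacers were called. Both calls in chl27 were lost without replicate 2, and that of the spacer also without replicate 3.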

How the results depend on the processing

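Coverage gives no read counts, so depth limits the values only through the spread of 3 libraries, and no exact test of 3 against 3 can go below 0.1. In the leaf table petL fell in the lowest 10% of genes and had no value when those were left out, and the 3 spacers under 200 bp had none when short spacers were left out. The calls at petL and trnW in Night and at petL in sig2-2 kept their direction and threshold under every alternative that gave a value. Pseudocounts of 0.1 and 10 and median coverage turned no direction. The cause of the shifts given next was not tested.

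With libraries centred on their median gene, the enrichment of petG turned to 0.0023 in Day, 0.13 in chl27, 0.30 in chlm and 0.27 in Col0, and that of psaJ to 0.84 in Day, 0.31 in chl27 and 0.43 in Col0. The changes turned for psaJ to -0.18 in Night, -0.24 in sig2-2 and -0.12 in chl27, and for petG to -0.25 in sig2-2, -0.15 in chl27 and 0.026 in chlm. They turned for psbJ (-0.22), psbF (-0.041), psbE (-0.032) and the spacer from trnP to psaJ (-0.053) in Night, and for rpl33 in sig2-2 (-0.13). With scaling outside the inverted repeats, the enrichment of psaJ turned to 0.29 in Day, 0.048 in chl27 and 0.12 in Col0. The changes turned for psaJ to -0.065 in Night, -0.0013 in sig2-2 and -0.070 in chl27, for petG to -0.013 in sig2-2 and -0.092 in chl27, for psbJ to -0.11 in Night, and in chlm for trnW to -0.029 and for trnP to -0.044. Spans extended by 50 bp turned petG in chl27 to -0.0047. In chlm, where 0 genes and 0 spacers were called, centring called 1 gene, scaling outside the repeats 3, leaving out the lowest 10% of genes 1, and spacers of at least 200 bp 1. Among the 63 spacers of at least 200 bp, 21 were called in Night, 49 in sig2-2 and 24 in chl27, with fewer spacers tested.

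Leaving out each replicate number in turn, the genes called in chl27 ran from 0 to 79, and the spacers called from 1 to 53, and those in Night from 14 to 40. Ranges that crossed 0 were those of psaJ against input in Day (-0.17 to 0.0083) and chlm (-0.078 to 0.098), of petG in Night (-0.19 to 0.093), chl27 (-0.036 to 0.086) and chlm (-0.14 to 0.039), and of psaJ in chl27 (-0.0028 to 0.071) and chlm (-0.057 to 0.26). In chlm those of petL (-0.038 to 0.27), trnP (-0.029 to 0.049) and trnP minus psaJ within a library (-0.16 to 0.087) crossed it too, as did the spacer from trnP to psaJ in Night (-0.089 to 0.25) and chl27 (-0.15 to 0.012).

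The labels do not say whether ChIP and input samples of the same replicate number belong together, and the main fits treated them as unpaired. Over 18 pairs of ChIP and input, the correlation of deviations from the group means ran from -0.10 to 0.62, and 12 were over 0.1. Of the 3 inputs of their group, 13 ChIP samples correlated best with that of their own number. With the replicate block, 81 genes were called in Night, 101 in sig2-2, 65 in chl27 and 0 in chlm, and 63 spacers in Night and 3 in chlm. The differences of trnW and trnP in chl27, of rpl33 in sig2-2 and of the spacer from trnW to trnP in Night then passed the threshold, and no other call changed among those tested of the 5 genes, of the 6 flanking genes in Night and sig2-2, and of the 4 spacers in Night, sig2-2 and chl27.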
